A study of Mus musculus with 7 samples.

Results

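The Hox genes are the members whose symbol is Hoxa, Hoxb, Hoxc or Hoxd followed only by a paralog number, and 38 of the 37620 gene identifiers in the count tables met this rule. They comprise 11 genes of the Hoxa cluster, 10 of Hoxb, 9 of Hoxc and 8 of Hoxd, and Hoxd4 was not analysed here. At least 1 read was found in some tumour for 29 of the 38. The tables come from 7 tumours that grew in the brains of nude mice, which have few T cells, after implantation of mouse glioblastoma stem-like cells. The cells came from the subventricular zone of the forebrain, as neural stem cells, and had been kept for 10 to 15 passages. GSC2 cells carried shp53, Nf1-/- and CDK4 and gave 3 independent tumours, and GSC1 cells carried lgT/Ras and gave 4 independent tumours, with 1 library each. Only 1 line carried each genotype, so line and genotype cannot be told apart, and a tumour sample holds RNA of host cells as well as of implanted cells. Replicate numbers only name the tumours, and p-values measure the spread between these tumours.

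Hox genes encode homeodomain transcription factors that give cells along the head-to-tail axis their positional identity. They lie in clusters in which genes of low paralog number are expressed from the hindbrain backward and genes of high paralog number only in the trunk and tail, an arrangement called collinearity. Their factors bind DNA together with cofactors of the Pbx, Meis and Pknox families, and retinoic acid, Cdx factors, Polycomb and trithorax proteins set where each cluster is on or off. In the normal brain the neurons of the hindbrain and spinal cord keep Hox expression into adult life, while the forebrain, the midbrain and most of the cerebellum lack it.

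The libraries held 18643155 to 27020814 reads on genes in GSC2 tumours and 21635117 to 32643408 in GSC1 tumours. Levels are given in CPM, read counts over the library size after scaling by the trimmed mean of M-values, without a filter on low counts. A count of 0 in a library allows up to 3 reads, which is 0.105 to 0.153 CPM in GSC2 and 0.0869 to 0.143 CPM in GSC1, and these limits cover counting error only. Transcript length moved with the library: long transcripts (8000 bases or more) minus short ones (2000 bases or fewer) had a median log2 deviation of -0.65 in GSC2 replicate 3, -0.38 in GSC1 replicate 3 and -0.32 in GSC1 replicate 4, and between 0.03 and 0.61 in the other 4 tumours. The longest transcripts of the Hox genes measured 874 to 3367 bases. All 5 neural stem and glioma cell markers (Sox2, Nes, Olig2, Pdgfra and Prom1) had reads in the tables, at a sum of 399 to 666 CPM in GSC2 tumours and 324 to 937 CPM in GSC1 tumours.

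Promoters of 4 members are shown because their levels set the tumours apart in different ways. Hoxa5 had reads in every tumour, while Hoxb4 and Hoxc4 were high in GSC1 replicates 3 and 4, Hoxb8 was high in GSC1 replicate 3 and far lower in GSC1 replicate 4, and all 3 were near or at 0 elsewhere. Each window runs from 250 bases before to 50 bases after the start of the gene, taken from RefSeq on GRCm38.p6, at chr6:52204538-52204837 on the minus strand for Hoxa5, and on the plus strand at chr11:96318017-96318316 for Hoxb4, chr11:96281655-96281954 for Hoxb8 and chr15:103034145-103034444 for Hoxc4. Capitals mark CG dinucleotides, the sites of DNA methylation that are dense in promoters bound by Polycomb proteins.
Hoxa5: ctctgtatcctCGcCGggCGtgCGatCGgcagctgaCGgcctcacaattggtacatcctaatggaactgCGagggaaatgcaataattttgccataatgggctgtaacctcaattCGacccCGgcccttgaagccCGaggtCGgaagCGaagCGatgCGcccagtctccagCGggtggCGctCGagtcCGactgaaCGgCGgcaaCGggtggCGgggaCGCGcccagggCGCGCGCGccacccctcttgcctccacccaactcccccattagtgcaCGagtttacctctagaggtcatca
Hoxb4: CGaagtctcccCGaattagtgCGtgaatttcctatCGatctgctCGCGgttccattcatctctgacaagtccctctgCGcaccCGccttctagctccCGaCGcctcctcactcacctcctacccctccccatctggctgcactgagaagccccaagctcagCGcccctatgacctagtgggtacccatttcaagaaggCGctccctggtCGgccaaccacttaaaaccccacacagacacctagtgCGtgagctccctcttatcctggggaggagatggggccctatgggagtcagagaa
Hoxb8: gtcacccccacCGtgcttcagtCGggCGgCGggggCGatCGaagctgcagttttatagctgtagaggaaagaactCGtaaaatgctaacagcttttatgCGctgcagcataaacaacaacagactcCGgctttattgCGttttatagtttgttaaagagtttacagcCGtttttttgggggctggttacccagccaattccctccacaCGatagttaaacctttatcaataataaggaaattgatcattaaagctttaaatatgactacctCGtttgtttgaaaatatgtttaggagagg
Hoxc4: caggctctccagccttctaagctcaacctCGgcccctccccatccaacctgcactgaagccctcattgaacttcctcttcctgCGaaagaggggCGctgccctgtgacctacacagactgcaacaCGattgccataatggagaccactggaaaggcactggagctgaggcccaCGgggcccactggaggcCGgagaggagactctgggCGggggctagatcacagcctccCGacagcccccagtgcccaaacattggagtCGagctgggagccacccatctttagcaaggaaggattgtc

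RefSeq windows were listed for 21 of the 38 members, 23 windows in all because Hoxa10 and Hoxd11 had 2 each. They held 4 to 45 CG dinucleotides with a median of 15, against a median of 7 over all 32851 windows, and a CG was present in all 23 and in 94.6% of all windows. The letters TGATNNAT, a form of the site at which Pbx and Hox proteins bind together, were searched on both strands and found in 4 of the 23 windows (17.4%), those of Hoxa2, Hoxb1, Hoxb8 and Hoxd11, against 8.85% of all windows. In Hoxb8 the match ATTGATCA lies at bases 240 to 247 of the window printed above, and none of the 4 matches contained a CG. These letters describe the windows and were not tested against expression.

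Taken as a sum, the Hox genes of GSC1 replicates 3 and 4 stood far above those of the other 5 tumours. Their summed level was 33.6, 11.9 and 8.82 CPM in GSC2 replicates 1 to 3, against 10.8, 12.5, 637 and 165 CPM in GSC1 replicates 1 to 4. The 95% exact binomial interval of the sum was 31.1 to 36.3 CPM in GSC2 replicate 1, 627 to 646.5 CPM in GSC1 replicate 3 and 159.5 to 170.5 CPM in GSC1 replicate 4. GSC2 replicate 3, whose library had the strongest bias to short transcripts, had the lowest sum. GSC1 replicates 3 and 4, with the highest sums, were also biased to short transcripts, and the part of this bias in the sums was not tested. The groups overlapped, with GSC2 replicates 1 and 2 inside the range of the GSC1 sums and GSC2 replicate 3 below it. The number of Hox genes at 1 CPM or more was 8, 4 and 3 in the GSC2 tumours and 3, 4, 18 and 14 in the GSC1 tumours, and 19 of the 38 reached 1 CPM in at least 1 tumour. Only Hoxa3 and Hoxa5 did so in all 7. In bulk tissue fewer cells of a type and less RNA per cell cannot be told apart.

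**Figure D1:**
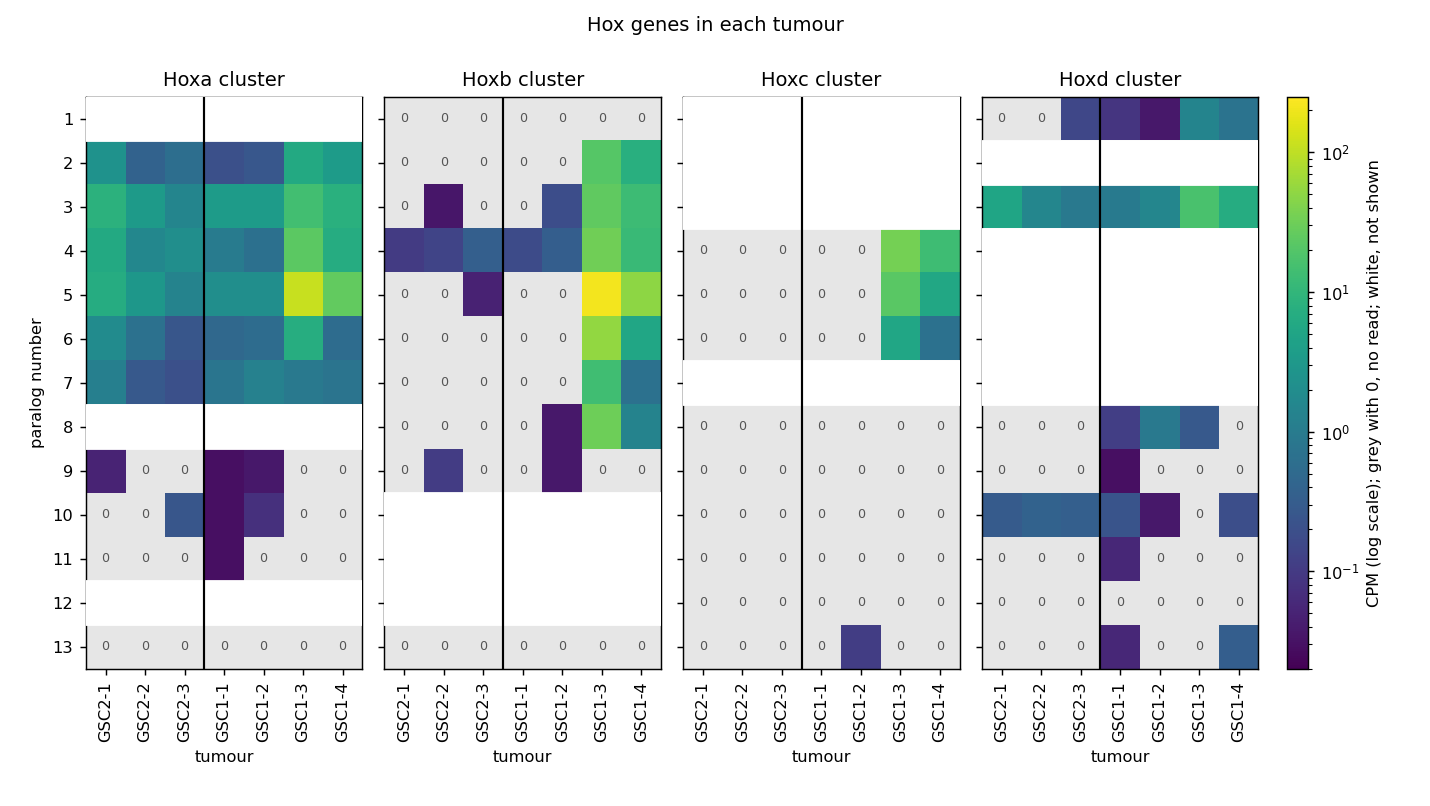
Each square is the level of a Hox gene (CPM, log colour scale) in a tumour, by cluster and paralog number (rows), with GSC2 tumours left of the black line and GSC1 tumours right of it. GSC1 replicates 3 and 4 have reads from paralog 2 to 8 in Hoxb and from 4 to 6 in Hoxc, where the other 5 tumours have at most 0.351 CPM, and the rows below paralog 8 are nearly empty in all 7.

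The clusters contributed differently to these sums, given here as shares of reads with no correction for transcript length. Hoxa genes made up 83.8, 81.8 and 79.5% of the summed Hox CPM in the GSC2 tumours and 84.5, 74.1, 26.6 and 28.6% in the GSC1 tumours. Hoxb genes made up 0.303, 2.35 and 4.55% in the GSC2 tumours and 1.60, 4.71, 60.7 and 54.5% in the GSC1 tumours. Thus the 5 tumours with low sums drew mainly on Hoxa, followed by Hoxd with 13.9 to 20.3%, and GSC1 replicates 3 and 4 mainly on Hoxb. Hoxc genes had 0 reads in all 3 GSC2 tumours and 0, 3, 1584 and 417 reads in the GSC1 tumours.

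Hoxa2, which patterns the anterior hindbrain and neural crest, was at 2.44, 0.386 and 0.602 CPM in GSC2 and at 0.203, 0.257, 6.24 and 3.52 CPM in GSC1. GSC1 replicates 1 and 2 were the lowest for Hoxa2 and GSC1 replicates 3 and 4 the highest. Hoxa3, needed for the thymus and parathyroid glands, was at 8.65, 3.40 and 1.45 CPM in GSC2 and at 3.54, 3.49, 14.5 and 7.999 CPM in GSC1. For Hoxa3 the value of GSC2 replicate 1 exceeded that of GSC1 replicate 4.

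Hoxa4 was at 6.06, 1.58 and 2.10 CPM in the GSC2 tumours and at 1.01, 0.662, 23.6 and 6.90 CPM in the GSC1 tumours. Hoxa5, required for lung development and for the motor neurons of the diaphragm, was at 6.92, 2.98 and 1.35 CPM in GSC2 and at 2.14, 2.13, 114 and 26.3 CPM in GSC1. It was the Hoxa gene with the widest span, and GSC2 replicate 1 again lay above the other 4 tumours with low sums. Hoxa6 was at 1.88, 0.666 and 0.251 CPM in GSC2 and at 0.493, 0.551, 7.23 and 0.571 CPM in GSC1, so that GSC1 replicate 4 did not stand apart. Hoxa7 behaved differently from its neighbours, with 1.17, 0.281 and 0.201 CPM in GSC2 and 0.782, 1.25, 0.914 and 0.762 CPM in GSC1. Its highest value was in GSC1 replicate 2, and GSC1 replicate 3 was not raised. Within the annotation used, 20.4% of the exon bases of Hoxa7 and 18.2% of those of Hoxa3 lie opposite exons of antisense genes, and the strand setting of the counting is not given in the sources used here.

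The Hoxb genes were at or near 0 in 5 tumours. Hoxb5, which acts in the neural crest of the gut, had 0, 0 and 1 reads in the GSC2 tumours, against 0, 0, 5249 and 1041 reads in the GSC1 tumours, the last pair being 209 and 49.6 CPM. Hoxb2, which takes part in the development of facial motor neurons, had 0 reads in GSC2 and in GSC1 replicates 1 and 2, against 20.6 and 7.71 CPM in GSC1 replicates 3 and 4. Hoxb3 had 0, 1 and 0 reads in GSC2 and 0, 5, 637 and 275 reads in GSC1. No Hoxb gene but Hoxb4 had a read in every tumour. Hoxb4, known for expanding blood stem cells in culture, was at 0.102, 0.140 and 0.351 CPM in GSC2 and at 0.174, 0.331, 32.7 and 12.1 CPM in GSC1.

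Posterior to Hoxb5, GSC1 replicate 3 was far above GSC1 replicate 4. Hoxb6 had 0 reads in GSC2 and in GSC1 replicates 1 and 2, and reached 53.9 and 5.38 CPM in GSC1 replicates 3 and 4. Hoxb7 was likewise at 0 reads in those 5 tumours, and reached 13.7 and 0.667 CPM in GSC1 replicates 3 and 4. Hoxb8, a gene of the spinal cord and of myeloid progenitors whose loss causes excessive grooming in mice, had 0 reads in GSC2 and 0, 1, 793 and 29 reads in GSC1. Hoxb9 ended the run of expressed genes, with 0, 3 and 0 reads in GSC2 and 0, 1, 0 and 0 reads in GSC1. Hoxb1, which specifies the rhombomere of the facial motor neurons in the embryo, and Hoxb13 had no read in any tumour.

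Of the Hoxc genes only Hoxc4, Hoxc5 and Hoxc6 exceeded 3 reads in any library. All 3 had 0 reads in the 3 GSC2 tumours and in GSC1 replicates 1 and 2. Hoxc4 was at 35.4 and 13.4 CPM, Hoxc5 at 22.3 and 5.81 CPM and Hoxc6, a gene of the brachial motor columns, at 5.25 and 0.667 CPM in GSC1 replicates 3 and 4. Hoxc8 to Hoxc12 had no read in any tumour, and Hoxc13, a hair follicle gene, had 3 reads in GSC1 replicate 2 and none elsewhere. The boundary in Hoxc thus lay between Hoxc6 and Hoxc8, whereas in Hoxb it lay between Hoxb8 and Hoxb9.

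In the Hoxd cluster Hoxd3, which shapes the first cervical vertebra, was detected throughout, at 5.04, 1.51 and 0.902 CPM in GSC2 and at 0.927, 1.54, 16.4 and 6.86 CPM in GSC1. Hoxd1, linked in mice to pain-sensing neurons, had 0, 0 and 3 reads in GSC2 and 3, 1, 36 and 15 reads in GSC1. Hoxd8 had 0 reads in GSC2 and 4, 25, 7 and 0 reads in GSC1, so that its highest value, 0.919 CPM, was in GSC1 replicate 2 and not in the tumours with high Hox sums. Hoxd10, a gene of lumbar motor neurons, had 6, 11 and 7 reads in GSC2 and 8, 1, 0 and 4 reads in GSC1. Hoxd8 and Hoxd10, like the other members below 1 CPM that are named here, were chosen after their values were seen. Hoxd10 was at 0.305, 0.386 and 0.351 CPM in GSC2, above all GSC1 values of 0.232, 0.0368, 0 and 0.190 CPM, at counts close to the limit of detection.

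Genes of paralogs 9 to 13 were nearly silent everywhere. There were 16 of them, 9 had a read in some tumour and none reached 1 CPM. Together they had 7, 14 and 12 reads in the GSC2 tumours and 16, 8, 0 and 11 reads in the GSC1 tumours. GSC1 replicate 3, with 16016 reads on Hox genes, had none on these 16, which allows up to 0.119 CPM for each. Paralogs 1 to 3 summed to 17.2, 5.79 and 3.91 CPM in GSC2 and to 5.65, 6.32, 87.2 and 41.0 CPM in GSC1, and paralogs 4 to 8 to 16.1, 5.65 and 4.31 CPM in GSC2 and to 4.72, 5.88, 549 and 123 CPM in GSC1. In the 5 tumours with low sums the sums of paralogs 1 to 3 and of paralogs 4 to 8 were close to each other, and in GSC1 replicates 3 and 4 paralogs 4 to 8 held most reads.

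Levels of different genes were compared as CPM per kilobase of the longest transcript. In GSC1 replicate 3 this level was 74.9 for Hoxb5, 60.7 for Hoxa5, 27.4 for Hoxb6, 16.7 for Hoxc4, 14.8 for Hoxa4, 12.7 for Hoxb4 and 11.96 for Hoxb8. In GSC1 replicate 4 it was 17.8 for Hoxb5, 14 for Hoxa5, 6.31 for Hoxc4, 4.69 for Hoxb4 and 4.33 for Hoxa4, while Hoxb6 was at 2.74 and Hoxb8 at 0.524. Paralog 5 was thus the highest of both Hoxa and Hoxb in these tumours, and its neighbours on either side were lower. Elsewhere the highest Hox gene per kilobase was Hoxa4, Hoxa5 and Hoxa4 in GSC2 replicates 1 to 3, at 3.80, 1.59 and 1.32, and Hoxa3 in GSC1 replicates 1 and 2, at 1.36 and 1.35. The order within a tumour is a description of single libraries without a replicate.

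**Figure D2:**
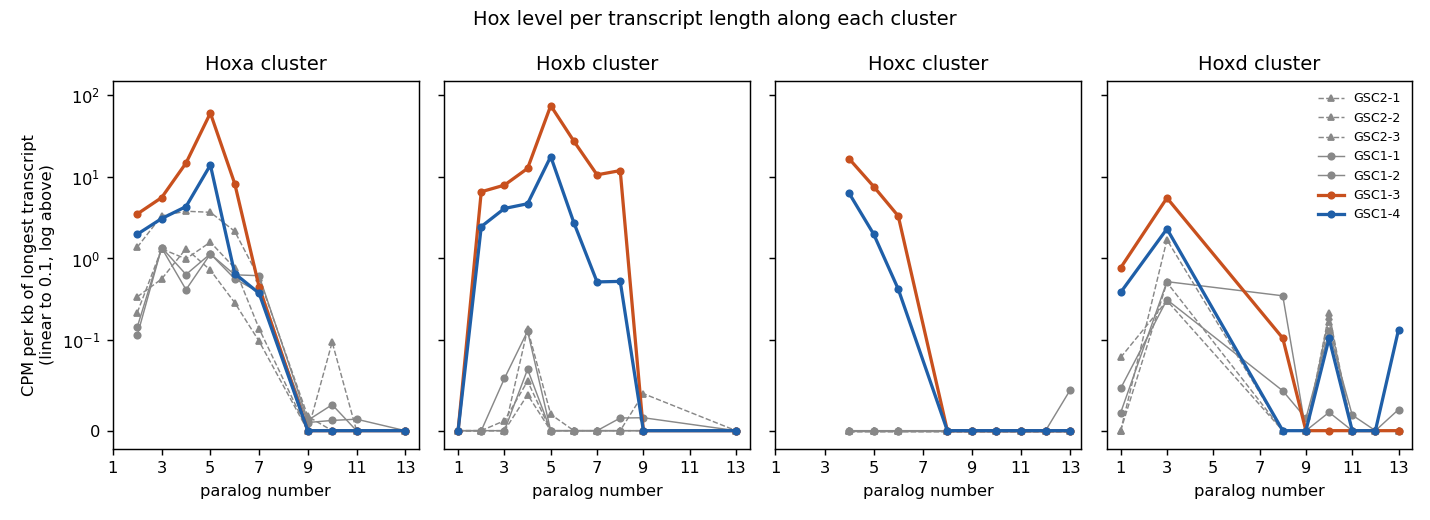
Level per transcript length (CPM per kilobase, linear to 0.1 and logarithmic above) against paralog number in each cluster, with GSC2 tumours as triangles and GSC1 tumours as circles; GSC1 replicate 3 is orange, GSC1 replicate 4 blue and the other 5 tumours grey. Hoxa and Hoxb peak at paralog 5 in both coloured tumours, at 60.7 and 74.9 in GSC1 replicate 3, and only Hoxa and Hoxd3 rise above 0.349 in the grey tumours.

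GSC1 replicates 3 and 4 differed from each other by a ratio that, from paralog 3 on, was higher for each higher paralog number in Hoxa up to Hoxa6, in Hoxb and in Hoxc. The CPM of replicate 3 over that of replicate 4 was taken for the 19 Hox genes with at least 10 reads in both, with 95% exact binomial intervals that cover counting error only. Over the 7 genes of paralogs 1 to 3 it was 1.77 for Hoxa2 at the lowest and 2.67 for Hoxb2 at the highest. For paralog 4 it was 3.42 in Hoxa4, 2.71 in Hoxb4 and 2.65 in Hoxc4. These intervals overlapped those of several genes of paralogs 1 to 3, for example 2.31 to 3.04 for Hoxc4 and 2.24 to 3.21 for Hoxb2.

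For paralog 5 the ratio was 4.34 in Hoxa5, 4.21 in Hoxb5 and 3.84 in Hoxc5, and for paralog 6 it was 12.7 in Hoxa6, 10.01 in Hoxb6 and 7.87 in Hoxc6. The interval of Hoxb6, 8.26 to 12.2, lay above that of Hoxb5, 3.94 to 4.50. Hoxb7 had a ratio of 20.6 with an interval of 12.1 to 38.0, and Hoxb8 one of 22.8 with an interval of 15.8 to 34.3. The Hoxb7 and Hoxb8 intervals overlapped each other, and that of Hoxb8 lay above that of Hoxb6. Hoxa7, from 23 and 16 reads, was the exception to this order, with a ratio of 1.2 and an interval of 0.607 to 2.43 that includes 1. The ratios rest on 1 library each, so the spread between tumours of like Hox sum is unknown.

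**Figure D3:**
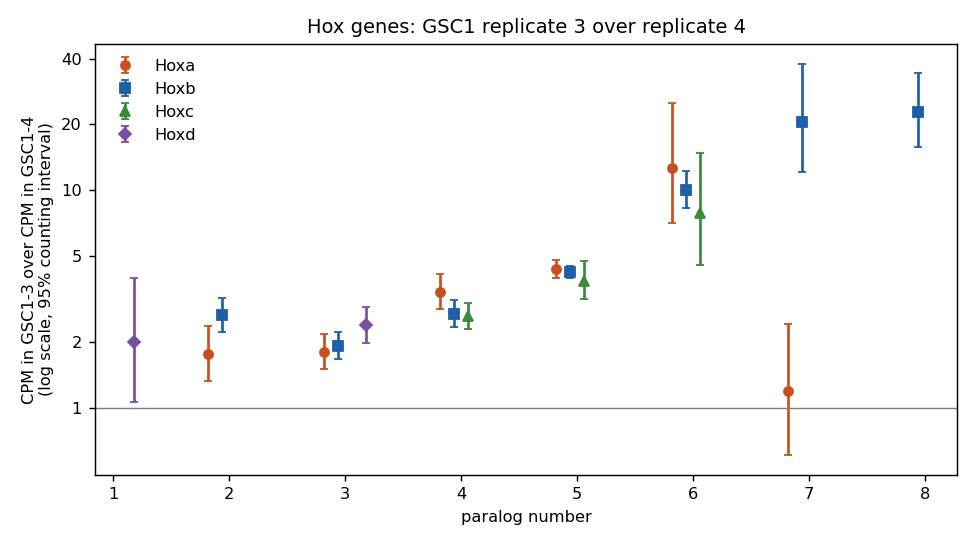
CPM in GSC1 replicate 3 over CPM in GSC1 replicate 4 (log axis) against paralog number for 18 Hox genes with at least 10 reads in both, by cluster (colours and symbols), with bars for the 95% counting interval and a line at 1. Points stay between 1.77 and 3.42 up to paralog 4, reach 7.87 to 12.7 at paralog 6 and 22.8 for Hoxb8, and Hoxa7 lies at 1.2.

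The comparison of the lines asked whether Hox genes differed between GSC2 and GSC1 tumours, and none passed the test. After the filter on low counts, 8 of the 38 Hox genes could be tested (among them Hoxa2 to Hoxa7 and Hoxd3), and 21 of the other 30 had a read. Under the quasi-likelihood test of edgeR with Benjamini-Hochberg adjustment, 0 of the 8 passed at a threshold of 0.05, against 0 of 16068 genes (0.0%). None of the 8 had an unadjusted p under 0.05, against 677 of all genes, and DESeq2 also called 0 of the 8, against 192 genes of all (1.19%), as did limma-voom, against 1 gene of all. All 8 log2 fold changes, GSC2 minus GSC1, were negative with a median of -1.2, where the median over all genes was -0.03 and 53.7% were negative.

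Hoxa5 averaged 3.75 ± 2.86 CPM in GSC2 tumours and 36.1 ± 53.1 CPM in GSC1 tumours (SD, n = 3 and n = 4). Its log2 fold change of -3.27 (SE 1.53) had an edgeR adjusted p of 1.00. The SD of GSC1 exceeded its mean, since the 4 values ran from 2.13 to 114 CPM. Hoxa3 averaged 4.50 ± 3.72 CPM in GSC2 and 7.37 ± 5.18 CPM in GSC1, with a log2 fold change of -0.71 (SE 0.75), and Hoxd3 averaged 2.48 ± 2.23 CPM in GSC2 and 6.44 ± 7.17 CPM in GSC1, with one of -1.37 (SE 1.09). For the remaining 5 the log2 fold changes were between -1.31 for Hoxa4 and -0.76 for Hoxa7. For each of the 8 genes the GSC2 and GSC1 values overlapped.

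Without GSC1 replicates 3 and 4, the direction turned for 6 of these 8 genes. Without GSC1 replicate 3 alone it turned for Hoxa4, to 0.14, and Hoxa6, to 0.74. In the fit without both the log2 fold change was 2.25 for Hoxa2, 1.91 for Hoxa4, 0.98 for Hoxd3, 0.80 for Hoxa6, 0.79 for Hoxa5 and 0.33 for Hoxa3, and again no Hox gene passed, against 0.272% of all genes in the edgeR test. With no filter on low counts, 29 Hox genes could be tested and 0 passed, against 1 of 22870 genes (0.00437%). In that test 12 of the 29 Hox genes had an unadjusted p under 0.05, against 894 of the 22870 genes: Hoxa5, Hoxb2 to Hoxb8, Hoxc4 to Hoxc6 and Hoxd8. Hoxb2 to Hoxb8 and Hoxc4 to Hoxc6 had at most 9 reads in any tumour but GSC1 replicates 3 and 4. GSC1 replicates 1 and 2 were thus at or near 0 as GSC2 was, and these genes did not separate the lines.

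Counted by overlap alone, Hoxd10 was the only Hox gene whose 3 GSC2 values all lay above the 4 GSC1 values, and none lay below. Over the 22870 genes with a read, 2.69% lay above and 2.13% below. Without GSC1 replicates 3 and 4, the GSC2 values of Hoxa2, Hoxa4 and Hoxd10 lay above those of GSC1 and the values of Hoxd8 lay below, where 15.7% of all genes lay above and 13.6% below. With single tumours left out, the count of 1 among the 29 Hox genes with a read became 4 without GSC2 replicate 1 (8.25% of all genes in either direction) and 3 without GSC2 replicate 3 (10.8%). It became 3 without GSC1 replicate 1 (7.03%) and 2 without GSC1 replicate 4 (7.63%). Without GSC1 replicates 3 and 4 and GSC2 replicate 3 it was 9, where 39.0% of all genes did not overlap.

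**Figure D4:**
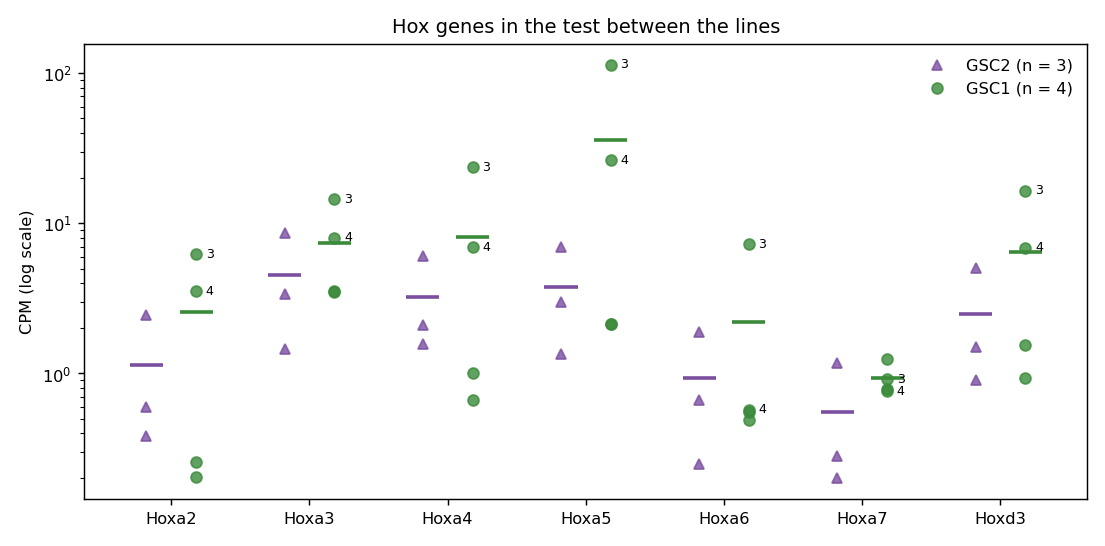
CPM (log axis) of 7 of the 8 Hox genes in the test between the lines, with GSC2 tumours as triangles left of GSC1 tumours as circles, a bar at each group mean, and the digits 3 and 4 beside the values of those GSC1 replicates. For Hoxa5 the GSC1 circles run from 2.13 to 114 CPM around the GSC2 triangles at 1.35 to 6.92 CPM.

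Of 17 noncoding and Evx genes that lie in or beside the Hox clusters, 9 had a read. For 6 of these both GSC1 replicate 3 and GSC1 replicate 4 exceeded all 5 other tumours, against 16.1% of all genes with a read. Hotairm1, an RNA transcribed from the anterior end of the Hoxa cluster, was at 1.48, 0.596 and 2.56 CPM in the GSC2 tumours and at 1.22, 1.36, 12.4 and 5.24 CPM in the GSC1 tumours. Evx1, a homeobox gene next to the posterior end of Hoxa that marks spinal interneurons, had 0 reads in GSC2 and in GSC1 replicates 1 and 2, and reached 7.51 and 2.38 CPM in GSC1 replicates 3 and 4, while Hoxa13 beside it had no read. Hoxb3os had the same 5 zeros and reached 3.94 and 3.19 CPM in GSC1 replicates 3 and 4. Hoxd3os1 ran the other way, with 3.05, 0.386 and 0.501 CPM in GSC2 and 0.898, 1.40, 0.119 and 0.238 CPM in GSC1.

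Among these genes 3 could be tested and 0 passed in the edgeR test, with 2 positive and 1 negative log2 fold changes. Hotair, Hottip and the 6 microRNA genes of the clusters were at 0 in all 7 libraries. Exons of Hoxb3os cover 52.9% of the exon bases of Hoxb3 and 27.3% of those of Hoxb2 on the opposite strand, so reads of these genes are uncertain without the strand setting. On the same strand, 5.40% of the exon bases of Hoxc5 are shared with Hoxc10.

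The cofactors with which Hox proteins bind DNA were present in every tumour. All 9 genes of the Pbx, Meis and Pknox families could be tested, 0 passed in the edgeR test, and 5 log2 fold changes were positive and 4 negative with a median of 0.01. Their sum was 457, 369 and 304 CPM in GSC2 and 345, 374, 313 and 283 CPM in GSC1, and it was not raised in the tumours with high Hox sums. Meis1 was at 10.3, 11.1 and 6.07 CPM in GSC2 and at 21.7, 24.1, 23.5 and 25.6 CPM in GSC1, without overlap. Over all genes with a read, 2.13% had every GSC2 value below every GSC1 value, and DESeq2 called 1.19% of the genes tested. Its log2 fold change was -1.38 (SE 0.28), with an edgeR adjusted p of 0.487 and a DESeq2 adjusted p of 0.000159. 

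Of the 18 Polycomb and trithorax genes, which keep Hox clusters silent or active, 0 passed in the edgeR test and 12 log2 fold changes were positive and 6 negative with a median of 0.01. Their sum was 1059, 836 and 639 CPM in GSC2 and 953, 1219, 483.5 and 559 CPM in GSC1. For 8 of the 18 both GSC1 replicates 3 and 4 lay below all 5 other tumours, against 15.3% of all genes with a read. For 2 both lay above, against 16.1%. Suz12, a subunit of Polycomb repressive complex PRC2, was at 141, 101 and 83.4 CPM in GSC2 and at 129, 182, 52.6 and 63.8 CPM in GSC1. Kmt2a, a histone methyltransferase that maintains Hox expression, was at 132, 107 and 16.4 CPM in GSC2 and at 88.5, 184, 12.1 and 21.0 CPM in GSC1. Its lowest values were in GSC2 replicate 3 and GSC1 replicates 3 and 4, the libraries with the bias to short transcripts, whose part in these values was not tested. Bmi1 and Men1 differed by less between tumours, at 55.1 to 103 CPM and 57.9 to 96.4 CPM over all 7. Bmi1 was lowest in GSC1 replicates 3 and 4, at 55.1 and 55.5 CPM.

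Among 13 regulators of hindbrain segmentation and caudal identity, 8 could be tested, 0 passed in the edgeR test, and 4 log2 fold changes were positive and 4 negative. Aldh1a2, which makes the retinoic acid that induces anterior Hox genes in the embryo, was at 12.9, 19.95 and 20.2 CPM in GSC2 and at 6.61, 5.81, 144 and 96.7 CPM in GSC1. It is also made by cells of the meninges, and the summed mural and fibroblast markers were 223, 341 and 339 CPM in GSC2 and 255, 246, 1170 and 541 CPM in GSC1. Col1a1 alone was at 758.5 CPM in GSC1 replicate 3. For 3 of the 5 markers both GSC1 replicates 3 and 4 exceeded all 5 other tumours, against 16.1% of all genes with a read. Pdgfrb and Rgs5 did not have this pattern, with Pdgfrb at 41.3 CPM in GSC1 replicate 4 against 56.4 CPM in GSC1 replicate 1. The part of such cells in the Aldh1a2 level was not tested. Cdx2, an activator of trunk Hox genes named here after its values were seen, was at 0, 0.0351 and 1.96 CPM in GSC2 and at 19.2, 17.6, 1.83 and 4.00 CPM in GSC1. Its highest values were in GSC1 replicates 1 and 2, where the Hox sum was low.

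Most genes of neurons of the hindbrain and spinal cord were high in the tumours with high Hox sums. Of 15 such genes 14 had a read and Mnx1, a motor neuron gene, had none. For 9 of the 14 both GSC1 replicates 3 and 4 exceeded all 5 other tumours, against 16.1% of all genes with a read. Their sum was 10.9, 12.5 and 7.32 CPM in GSC2 and 14.7, 16.4, 245 and 143 CPM in GSC1. Slc6a5, which makes up most of this sum in GSC1 replicates 3 and 4, the glycine transporter of inhibitory neurons in the hindbrain and spinal cord, was at 0.509, 1.89 and 0 CPM in GSC2 and at 0.724, 0.882, 135 and 81.2 CPM in GSC1. The exceptions were Isl1, Tph2, Slc6a4, Fev and Lhx1. Lhx1, a spinal interneuron and Purkinje cell gene, was at 0, 0.631 and 1.91 CPM in GSC2 and at 8.78, 9.85, 5.96 and 13.95 CPM in GSC1. Of the 11 that could be tested 2 log2 fold changes were positive and 9 negative, with a median of -2.35. None passed in the edgeR test, and 5 had an unadjusted p under 0.05, against 677 of 16068 genes. The 5 were Slc6a5, Lbx1, Lhx1, Slc6a4 and Isl1, and Isl1 went the other way, with a log2 fold change of 1.34. Lhx1, Slc6a4 and Isl1 are among the exceptions named above. DESeq2 called Lbx1 and Lhx1, both lower on average in GSC2, against 1.19% of all genes. Lbx1 was at 0.102, 0.175 and 0.0501 CPM in GSC2 and at 0.116, 0.404, 19.9 and 6.09 CPM in GSC1. Its values overlapped between the lines, and only GSC1 replicates 3 and 4 were high.

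Forebrain genes had the reverse pattern, with 12 of 14 lower in both GSC1 replicates 3 and 4 than in any other tumour, against 15.3% of all genes with a read. The exceptions were Emx1 and Neurod6. Their sum was 452, 332 and 437 CPM in GSC2 and 381, 313, 44.4 and 52.3 CPM in GSC1. Ddn, a dendrite gene of forebrain neurons, was at 138, 129 and 152 CPM in GSC2 and at 115, 47.9, 2.66 and 0.762 CPM in GSC1. All 14 could be tested, 0 passed in the edgeR test, and 12 log2 fold changes were positive and 2 negative, with a median of 0.96, and DESeq2 called Nkx2-1, against 1.19% of all genes.

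Most cerebellar genes were higher in both GSC1 replicates 3 and 4 than elsewhere, but their levels separated these tumours from each other. For 6 of the 7 with a read both exceeded all 5 other tumours, against 16.1% of all genes with a read. This count includes Pcp2, named here after its values were seen, which had 1417 reads in GSC1 replicate 4. Pcp2 had only 1 read in each of GSC1 replicates 1, 2 and 3, so replicate 3 could not be told from the others. Zic1 in GSC1 replicate 3 was only slightly above GSC2 replicate 3. Of 8 such genes 7 had a read and Atoh1 had none. The sum of the list was 56.9, 164 and 184 CPM in GSC2 and 28.9, 29.2, 181 and 1116 CPM in GSC1. Zic1 and Zic2 made up most of this sum in every tumour but GSC1 replicate 4. Zic1 was at 17.96, 103.7 and 127.2 CPM in GSC2 and at 1.913, 2.316, 135.0 and 306.1 CPM in GSC1. Zic2 was at 35.67, 51.52 and 51.83 CPM in GSC2 and at 20.89, 24.41, 23.01 and 95.08 CPM in GSC1. Cbln3, a gene of cerebellar granule cells, had 0, 6 and 4 reads in GSC2 and 0, 2, 33 and 5144 reads in GSC1. Car8, a gene of Purkinje cells, was at 3.31, 8.49 and 4.51 CPM in GSC2 and at 6.08, 2.35, 15.9 and 277 CPM in GSC1. Both genes were highest in GSC1 replicate 4, and 0 of the 3 cerebellar and 5 midbrain genes that could be tested passed in the edgeR test. The 8 midbrain and isthmus genes summed to 9.97, 16.7 and 21.0 CPM in GSC2 and to 1.88, 2.13, 27.7 and 87.2 CPM in GSC1. Pax2 and Pax8 made up most of that sum in GSC1 replicate 3, at 17.8 and 8.55 CPM, and Otx2 and En2 in GSC1 replicate 4, at 44.9 and 29.2 CPM.

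**Figure D5:**
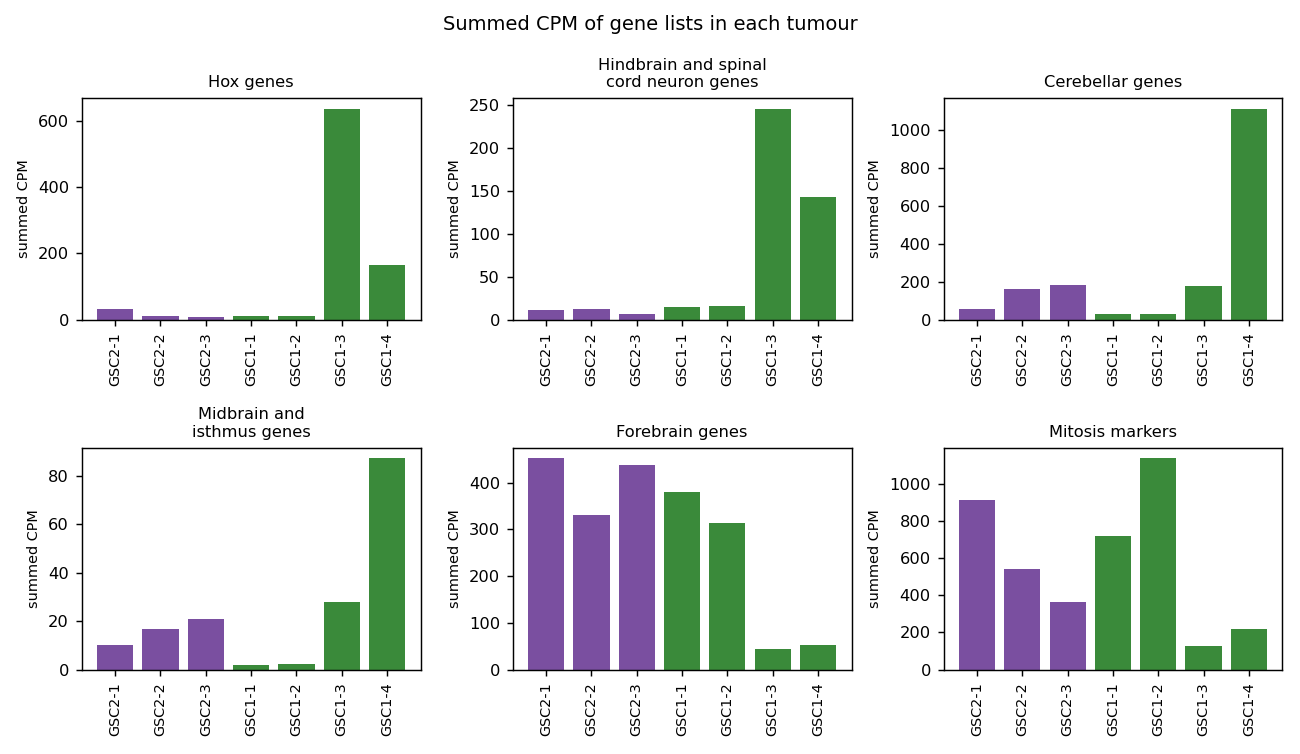
Summed CPM of the Hox genes, 4 lists of regional brain genes and the mitosis markers in each tumour (linear axes from 0, 1 library per bar), with GSC2 tumours in purple left of GSC1 tumours in green. The Hox and hindbrain panels are highest in GSC1 replicate 3 and then in GSC1 replicate 4, at 637 and 165 CPM for Hox, while the forebrain panel is lowest in these tumours, at 44.4 and 52.3 CPM.

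Summed markers of several cell types also set GSC1 replicates 3 and 4 apart from the other 5 tumours, though not every member did. Among the other 5 tumours they did not follow the Hox sum. GSC2 replicate 1 had the highest Hox sum of these 5, at 33.6 CPM, and lower neuron and astrocyte sums than GSC2 replicates 2 and 3. The 4 mitosis markers summed to 913, 542 and 363 CPM in GSC2 and to 718, 1138, 127 and 216 CPM in GSC1, lowest in the tumours with the high Hox sums. All 4 were lower in both of these tumours than in any other, against 15.3% of all genes with a read. The 6 neuron markers summed to 602, 1562 and 1380 CPM in GSC2 and to 829, 357, 2668 and 2676 CPM in GSC1, and the 4 astrocyte markers to 2047, 5483 and 5268 CPM in GSC2 and to 1730, 854, 10310 and 7854 CPM in GSC1. All members of both lists had reads. GSC1 replicates 3 and 4 both exceeded the other 5 tumours for 3 of the 6 neuron markers (Snap25, Rbfox3 and Nefl) and 3 of the 4 astrocyte markers. The share over all genes with a read was 16.1%. Among the neuron markers Syt1, Slc17a7 and Gad1 did not have this pattern. The 4 mature oligodendrocyte markers summed to 1863, 5860 and 6725 CPM in GSC2 and to 1068, 421, 13600 and 5036 CPM in GSC1. GSC2 replicates 2 and 3 exceeded GSC1 replicate 4 in this last list, with Hox sums of 11.9 and 8.82 CPM against 165 CPM.

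Of other cell types, the 7 microglia and macrophage markers summed to 985, 1124 and 1437 CPM in GSC2 and to 1262, 634, 831 and 962 CPM in GSC1, and did not follow the Hox sum. The 4 endothelial markers summed to 104, 140 and 124 CPM in GSC2 and to 123, 112, 176 and 179 CPM in GSC1, highest in GSC1 replicates 3 and 4. For 3 of the 4 both of these tumours exceeded the other 5, against 16.1% of all genes with a read. The 6 skeletal muscle markers summed to 1.78 to 3.16 CPM in GSC2 and to 1.03 to 3.13 CPM in GSC1. The 4 choroid plexus and ependymal markers summed to 2070, 2730 and 4758 CPM in GSC2 and to 10.9, 5.26, 54.7 and 8448 CPM in GSC1, so that the 2 tumours with high Hox sums were far apart. Without GSC1 replicates 3 and 4, Ttr, Folr1 and Kcnj13 of this list passed in the edgeR test, against 0.272% of all genes. With all 7 tumours 0 members of any of these lists passed, and the part of each cell type in the Hox levels was not tested.

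The genes whose pattern was most like that of the summed Hox level were sought among 12257 genes with a symbol and a mean of at least 5 CPM, as the Pearson correlation of log2(CPM + 0.1) over the 7 tumours. The 10 highest were Rita1, Sms, Usp33, Dbh, Aldh7a1, Ppm1a, Ebf1, Gal, Nts and Tfrc, with r from 0.994 to 0.956. Dbh, the enzyme that makes noradrenaline, was at 0.153, 0.105 and 0 CPM in GSC2 and at 0.0869, 0.0368, 23.3 and 11.4 CPM in GSC1. Gal, a neuropeptide gene, was at 11.5, 5.16 and 10.1 CPM in GSC2 and at 5.16, 4.78, 108 and 39.1 CPM in GSC1. Rita1, the first in the order, had a much smaller span, at 12.9, 11.1 and 11.2 CPM in GSC2 and at 11.5, 11.95, 18.5 and 15.5 CPM in GSC1. For all 10 genes GSC1 replicates 3 and 4 exceeded every other tumour, against 16.1% of all genes with a read. The genes were picked for likeness to a sum that is highest in these tumours, so this pattern follows from the choice. The values of the 10 genes come from the same libraries as the Hox sum.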

How the data were processed

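RNA was sequenced from 7 tumours, 3 GSC2 and 4 GSC1, with groups and replicate numbers from the sample titles. The authors deposited raw read counts per Ensembl gene. The submitters' processing notes name TopHat2 2.0.11, HTSeq and the builds mm9 and dm3 with no role. The version, mode and strandedness of HTSeq were not given in the sources used here. GENCODE M21 (GRCm38) gave symbols for 32897 of 37620 identifiers, the rest holding 0.485% of counts, and exon overlaps and lengths. Lines for no feature (6.19 to 14.2% of reads listed), ambiguous (0.357 to 0.460%) and not uniquely placed reads (12.8 to 21.0%) stayed out. All 21 library pairs differed beyond sampling noise (chi-square over degrees of freedom 66.5 or more).

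In R 4.3.3, edgeR 4.0.16 tested all genes with TMM factors, filterByExpr and a robust quasi-likelihood fit, adjusted by Benjamini-Hochberg, after a test on simulated data. Alternatives were RLE, upper-quartile or no factors, no filter, DESeq2 1.42.0, limma 3.58.1 (voom), a replicate block, tumours left out and a threshold of 0.1 CPM. Intervals came from scipy 1.17.1 in Python 3.11.15. Named were Hox genes reaching 1 CPM, up to 4 genes per list by mean CPM, the Meis and Pbx genes and the 10 most similar genes. Members and lists were chosen with earlier results of these data known. Some genes are not reported here.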

Additional observations from a re-analysis of the deposited data

Results flagged for a closer look

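In the 4 GSC1 tumours the value of replicate 3 stood apart from the other 3 for 5 Hox genes, where the gap to the nearest value took up more of the whole range than Dixon's 95% critical value allows. These were Hoxa6 at 7.23 CPM (share 0.988), Hoxb6 at 53.9 CPM (0.900), Hoxb7 at 13.7 CPM (0.951), Hoxb8 at 31.5 CPM (0.956) and Hoxc6 at 5.25 CPM (0.873). The rule was applied to 18 Hox genes that reached 1 CPM and to the Hox sum, 19 checks in all, of which chance flags about 1 in 20, and the checks share their libraries. For the sum, replicate 3 did not pass that value.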

How the results depend on the processing

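The count of Hox genes called was 0 in every setting run. The count of all genes called, 0, became 1 with no filter, 192 with DESeq2, 1 with limma-voom, 44 without GSC1 replicates 3 and 4, and 55 without these and GSC2 replicate 3. The summed Hox level, GSC2 minus GSC1, was -188.1 CPM, and turned to 6.46 without GSC1 replicates 3 and 4 and to 11.1 without these and GSC2 replicate 3. With single tumours left out it was -253.2 to -44.6, the smallest size without GSC1 replicate 3. Hox genes without overlap, 1 in all 7 tumours, were 4 without GSC1 replicates 3 and 4, 9 without these and GSC2 replicate 3 (39.0% of all genes), and 1 to 4 with single tumours left out (7.03 to 10.8% of all genes where the count changed). At 0.1 CPM in place of 1 CPM, 11 and 12 genes counted in GSC2 replicates 2 and 3 and 11 and 12 in GSC1 replicates 1 and 2. Of 131 fold changes recomputed, 115 kept their direction and 16 turned. With single tumours left out the log2 fold change of Hoxa4 was -2.12 to 0.14 and that of Hoxa6 -2.24 to 0.74, both turned without GSC1 replicate 3, and it was -2.36 to -0.26 for Hoxa2, -1.59 to -0.20 for Hoxa3, -4.04 to -1.49 for Hoxa5 and -2.40 to -0.37 for Hoxd3, lowest without GSC2 replicate 1 and nearest 0 without GSC1 replicate 3. Without GSC1 replicates 3 and 4 and GSC2 replicate 3, Hoxa2 was at 2.56, Hoxa3 0.76, Hoxa4 2.14, Hoxa5 1.19, Hoxa6 1.25 and Hoxd3 1.39, and without GSC1 replicates 3 and 4 they were at 2.25, 0.33, 1.91, 0.79, 0.80 and 0.98 in the same order. The lowest adjusted p in edgeR was 0.259, for Hoxa4. With the replicate number as a block, Hoxa2 was at 0.30 and Hoxa4 at 0.40 and 0 Hox genes were called, but deviations of same-numbered tumours correlated at 0.583, -0.306 and 0.409, so the numbers do not pair the tumours. The cause of these turns was not tested. Genes under 3 reads could not be told from 0.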
